A study of Oryza sativa with 16 samples.

Results

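The probes described here had a low signal in the shoot of Nipponbare rice and a clear signal in its root, panicle and callus. They belong to the probes whose names end in _C, each of which stands for an FL-cDNA locus, a place in the rice genome to which full-length cDNA clones had been mapped. The signal of every channel was scaled to a median of 1000 and set to 0 where the spot was not well above background. A tissue level was the median over the channels hybridized with that tissue. Members had a level under 1000 in Nipponbare shoot and over 2000 in each of root, panicle and callus. Of 20404 _C probes, 342 met this rule, at 342 different loci (1.68%), and the arrays held 83040 different probes in all. The members were thus chosen by their measured levels in the 4 Nipponbare tissues, which are given as a description.

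The data came from 16 two-colour Agilent oligonucleotide arrays, with 2 array sets that carry largely different probes, 4 comparisons and 2 replicates. Each array compared Nipponbare shoot with root, panicle or callus of Nipponbare or with shoot of IR64. Nipponbare is a japonica variety, IR64 an indica variety, and the labels name no transgene and no treatment. Cy3 marked the tissue in replicate 1 and Cy5 did so in replicate 2, and replicate and dye cannot be told apart.

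Shoots of both varieties were grown in soil in a greenhouse for 10 days by the labels, although the methods give a later age. Roots came from plants grown for 10 days in hydroponic culture in a growth chamber. Panicles were at the late-boot stage, when the young inflorescence is still inside the leaf sheath, and came from the field. Callus, a mass of unorganized cells that divide in culture, originated from the scutellum of the seed and was kept for 28 days on induction medium. RNA of several plants was pooled for each sample. Shoot RNA was extracted with Trizol and RNA of the other tissues with a column kit, so growth place and extraction differed along with the tissue. Nipponbare shoot was hybridized 8 times for each member, from 2 extracts by the labels (3 hybridizations of extract 1 and 5 of extract 2). The other samples were hybridized 2 times, and callus replicate 1 shared shoot extract 2 with callus replicate 2. The scan days differed between the comparisons, and scan day and tissue cannot be told apart.

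A seedling shoot consists mostly of green leaves, in which transcripts of photosynthesis make up much of the messenger RNA. Roots take up water and ions and hold a growing tip, young panicles form the floral organs, and callus is kept in division by auxin. In whole-tissue RNA, fewer cells that express a locus and less transcript per cell cannot be told apart. The files pair no probe with a gene name, and 0 of the 342 probe or locus names were found in the gene table used here, so members are given by probe name. In such a name, R07-00526R_C for example, the first part gives the chromosome, the second a locus number, and F or R the orientation. Probe sequences were not used here.

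Leaf and other tissues could be compared on control spots named CAB, whose sequence is not known here. Their scaled signal was between 17253 and 49142 in Nipponbare shoot and between 29466 and 55180 in IR64 shoot, against 4589 to 6189 in panicle, 1158 to 1584 in root and 516 to 1078 in callus. These spots were brighter in both shoots than in root, panicle and callus. Per channel, 80.5% to 95.5% of probes were well above background. On the IR64 array of replicate 2 in set 1, 2046 spots were marked as outliers in the IR64 channel, more than in any other channel, and such spots stayed out of the ratios below.

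The median level over the 342 members was 733 in Nipponbare shoot, 3867 in root, 3885 in panicle and 5116 in callus. Over all _C probes the corresponding medians were 2568, 3201, 3442 and 3354. The replicates gave 3474 and 4287 in root, 3809.5 and 3901 in panicle, and 5275 and 5159 in callus, and the 8 shoot hybridizations had medians between 561 and 801. Callus gave the highest level for 174 members, root for 92 and panicle for 76. The highest of these tissues exceeded the lowest by a median factor of 2.49. In 54 members this factor was under 1.5, a nearly even signal in root, panicle and callus, and in 48 members it was over 5. Levels over 4000 in each of these tissues were measured for 62 members, and 3 members were over 10000 in each.

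Shoot was low but seldom dark. The level was under 500 for 67 members and 0 for 3, and 309 members were well above background in all 8 shoot hybridizations. All 8 shoot hybridizations were under 1000 for 132 members, and 32 members were under 1000 in only 4 of them. All 6 channels of root, panicle and callus exceeded all 8 shoot channels for 332 members, an order that 20.1% of all _C probes also had. The rule chose on these channels, so nothing is read from that count. In the fit with limma, 342 members were called higher in root than in shoot, 341 in panicle and 340 in callus at an adjusted p under 0.05, where 23.2%, 22.6% and 24.9% of all probes and 39.7%, 38.5% and 41.5% of all _C probes were called higher. Called lower were 0 members, against 23.2%, 24.6% and 24.6% of all probes. These contrasts also chose the members, and nothing is read from these counts. Their median log2 ratios over shoot were 2.64 in root, 2.46 in panicle and 2.89 in callus, against -0.05, -0.05 and -0.06 over all probes tested.

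Choosing on 1 replicate and reading the other gave a measure that the choice had not used. With replicate 1 alone, 334 _C probes met the rule, and 238 of them (71.3%) met it again in replicate 2. In replicate 2, 256 of the 334 were under 1000 in shoot, 332 over 2000 in root, 317 in panicle and 329 in callus, so the shoot limit was missed most often. The order itself held more widely: 313 of the 334 had root, panicle and callus each at more than 2 times the shoot level in replicate 2, as had 14.9% of all _C probes. Choosing on replicate 2 gave 355 probes, of which 238 met the rule in replicate 1. There the root limit was missed most often, with 299 over 2000 in root, 331 in panicle and 343 in callus, and 315 under 1000 in shoot. The RNA samples of the replicates carry different labels except for shoot beside callus.

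In shoot 72 members were between 900 and 1000, and the probes nearest each limit are named here. Just inside the shoot limit were R01-00179R_C at 998 and R04-00202F_C at 998, and just outside it R01-01210R_C and R05-00399F_C, both at 1003. In root, R05-00523R_C at 2001 and R12-00440R_C at 2007 were inside, while R03-00648R_C at 1985 and R10-00070F_C at 1979.9 were outside. In panicle, R03-00891F_C at 2008 and R05-00390R_C at 2017 were inside, with R03-00354F_C at 1999.7 and R07-00440F_C at 1998 outside. In callus the nearest inside were R07-00400F_C at 2057 and R09-00464R_C at 2058, the nearest outside R09-00366R_C at 1995 and R03-00529F_C at 1979. R03-00648R_C had 22402 in panicle and 21818 in callus, far above the limit in those tissues.

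The 8 members with the largest lowest fitted ratio over shoot are given next. This ranking does not ask for low values in every shoot channel. R07-00526R_C, for example, was under 1000 in only 4 of its 8 shoot hybridizations. R12-00319R_C, on chromosome 12, gave 18231 and 21512 in root, 7511 and 6031 in panicle, and 2636 and 3094 in callus in replicates 1 and 2. Of its 8 shoot channels 5 were at 0, and the others were 197, 369 and 601. Both IR64 channels were at 0. The groups of root, panicle and callus did not overlap with shoot, which the rule favours, so nothing is read from that. The fitted log2 ratios over shoot were 5.44 ± 0.17 (SE) in root, 5.33 ± 0.17 in panicle and 4.89 ± 0.17 in callus.

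R01-01024F_C was alike, with 8733 and 13126 in root, 2627 and 2991 in panicle and 2492 and 3612 in callus. It was at 0 in 5 of 8 shoot channels, with 233, 311 and 482 in the others, and at 0 in both IR64 channels. R11-00154F_C had 7248 and 9869 in root, 4909.7 and 5297 in panicle, and 1795 and 2524 in callus, while its shoot channels ran from 0 to 391 with 4 of 8 at 0. By level these members were highest in root. In the fit no contrast of root with panicle or callus was called for them. The fitted log2 ratio of R01-01024F_C was higher in callus, 5.03 ± 0.29, than in root, 4.83 ± 0.29. R12-00319R_C and R01-01024F_C were well above background in 3 of 8 shoot channels and R11-00154F_C in 4, and for the other channels the fitted ratios rest on the substitute values that the scanner software gives to dim spots.

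By level R03-01349F_C was highest in panicle, with 10299 and 11344 there, 4869 and 5279.8 in callus and 2993 and 2791 in root. Its fitted log2 ratio was 4.94 ± 0.30 in callus and 4.89 ± 0.30 in panicle, and no contrast among these tissues was called. Its 8 shoot channels ran from 0 to 384. R03-00158R_C also led in panicle by level, with 14023 and 13604, against 6376 and 7987 in root, 7434 and 7544 in callus and 249 to 871 in shoot. Its contrasts of panicle with root and callus were not called. In neither probe did a shoot channel overlap with a channel of root, panicle or callus, an order that 332 of the 342 members had. The rule chose on these channels, so nothing is read from that.

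R06-00423R_C gave 8828 and 7194 in callus, 4449.9 and 5171 in panicle, and 3052 and 4403 in root, and between 0 and 285 in shoot. R06-00208F_C reached 45034 and 58139.5 in root, 9559 and 9649 in panicle, and 4706 and 4794 in callus. Its shoot channels were between 229 and 431 except on the root arrays, where they were 1058 and 1470.5. R07-00526R_C gave 229145 and 159223 in callus, 24466 and 28288 in panicle and 7847 and 11146 in root. In shoot it ran from 207 to 5154. Its fitted log2 ratios over shoot were 5.85 ± 0.24 in callus, 4.37 ± 0.24 in panicle and 4.64 ± 0.24 in root. It was the only member with a saturated channel, 1 of its 2 callus channels, so its callus value there is a lower limit. Its root contrast with callus was -1.21 in the fit and -4.35 between the levels on the log2 scale.

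The shoot values of such members differed with the sample in the other channel of the same array. In replicate 2 the same shoot extract, labelled with Cy3, was hybridized beside IR64 shoot, root, panicle and callus. For 217 of the 342 members (63.5%) the highest of these 4 shoot values was on the array with the brightest partner. Of the 6040 other _C probes under 1000 in shoot, 51.4% had that order. Where root was the brightest partner, the median shoot level was 1044 beside root and 709 on the other arrays. The medians were 924 and 628 for panicle, and 889 and 689 for callus.

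The difference grew with the partner's signal. Beside partners under 3000, the median shoot level was 1.17 times that of the same probes beside IR64, over 265 pairs of a probe and an array. It was 1.32 times for partners of 3000 to 6000, 1.65 times for 6000 to 12000, 2.05 times for 12000 to 24000, and 3.57 times for the 27 pairs with a partner over 24000. The lowest shoot medians of the members were those beside IR64, 563 and 561, against 681 to 801 beside the other partners. Over all _C probes the shoot medians were also lowest beside IR64, 2285 and 2245, against 2468 to 2797 beside the other partners. The ratios by partner signal were not corrected for this shift. The counts and ratios by partner signal were taken in replicate 2 alone, and the part of the partner's signal in the shoot values was not tested. A ratio over shoot is smaller where the shoot value beside it is larger.

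The members whose shoot values varied most show it case by case. R08-00398F_C gave 4993 and 6549 in shoot beside root, which itself had 34332 and 49427, and between 179 and 1118 in the other 6 shoot channels. R01-00838R_C gave 3329 and 3177 beside root (42993 and 51017), 1114 and 874 beside panicle (11166 and 13267), and 186 to 351 beside callus and IR64. In R05-00122F_C the high shoot values, 3271 and 2280.4, were those beside panicle (13029.9 and 7847), and the others were 182 to 736. R07-00526R_C had 5154 and 2301 beside callus, 1494 and 1104 beside panicle, and 207 to 534 beside root and IR64. In each of these 4 probes the highest shoot values stood beside the brightest partner, and the level that entered the rule is a median over unlike values.

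IR64 shoot took no part in the rule. The median level of the members there was 616, and 300 of the 342 (87.7%) were under 1000, where 33.2% of all _C probes were. In Nipponbare shoot, where the members were chosen to be low, 31.3% of all _C probes were under 1000. By the same limits, other _C probes were low in shoot and a further tissue. Their median IR64 level was 500 with callus, 315 with panicle and 390 with root, so a low IR64 signal was not particular to the members. Over 2000 in IR64 were 8 members (2.34%), against 52.4% of all _C probes, and 2 members when channels were scaled on the probes well above background. On the same arrays the median in Nipponbare shoot was 563 and 561, and that in IR64 592 and 632. The median log2 ratio of IR64 over Nipponbare shoot was 0.10 over the members, 0.01 over all _C probes and 0.02 over all probes tested. It was 0.04 in replicate 1 and 0.13 in replicate 2. Within 2-fold of Nipponbare shoot were 309 members. The paper proposes that genome sequence differences from Nipponbare may have affected IR64 signals, and it left IR64 out of its further analyses. Transcript amount and probe match cannot be told apart in the IR64 values given here and below.

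The fit called 23 members higher and 8 lower in IR64 at an adjusted p under 0.05 (limma), or 6.73% and 2.34%. Over all probes 2.86% were called higher and 4.27% lower, and over all _C probes 3.54% and 5.99%. The Nipponbare side of this contrast was used by the rule, which asked for low values there. With members chosen without the shoot channels of the IR64 arrays there were 289, of which 22 were called higher and 6 lower. Those shoot values came from the same extracts, and the partner differed. Under normexp background correction with loess normalization the counts were 11 and 4, and 10 and 4 of those were among the 23 and 8. No share over all probes is given for that setting. With the IR64 arrays alone, 2 per probe, limma called 0 members and 0 of all probes, with 34 members higher and 14 lower at an unadjusted p under 0.05, where 5.15% and 6.55% of all probes and 6.52% and 9.08% of _C probes were.

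Among other _C probes low in shoot the calls were as follows. Of the 123 probes low in shoot and callus, 9 were higher and 2 lower in IR64. Of the 116 low in shoot and panicle the counts were 4 and 3, and of the 104 low in shoot and root, 2 and 2. Of the 8994 probes over 2000 in all Nipponbare tissues, 273 were higher and 562 lower. The difference between these sets was not tested.

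R06-00307R_C, on chromosome 6, was the member farthest from its Nipponbare shoot level in IR64. It gave 6993 and 6272 in IR64, and in Nipponbare shoot 455 and 468 on the same arrays and 315 to 729 over all 8. Root gave 4340.1 and 5741, panicle 6259 and 3939, and callus 3094 and 3369. The IR64 channels were above every other channel of this probe, with a log2 ratio over Nipponbare shoot of 3.81 ± 0.20 (SE, adjusted p = 0.000435, limma) and 2.72 under normexp with loess. Its signal was thus low in the shoot of Nipponbare and not in that of IR64.

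R03-00821F_C gave 2284 and 3468 in IR64 against 388 and 560.1 in Nipponbare shoot on the same arrays, a log2 ratio of 2.58 ± 0.16 (adjusted p = 0.000424, limma). R12-00554R_C gave 1745 and 1864 against 251 and 344, also 2.58 ± 0.21 (adjusted p = 0.00159). R11-00043F_C gave 2460.1 and 2434 against 631 and 675, or 1.87 ± 0.11 (adjusted p = 0.000508). Under normexp with loess the ratios were smaller, 1.58 for R03-00821F_C, 1.36 for R12-00554R_C and 1.21 for R11-00043F_C, and remained called. In all of them both IR64 channels lay above all 8 Nipponbare shoot channels. Such a separation was measured for 18 members, and for 5.29% of all _C probes. The reverse, both IR64 channels below all 8, was measured for 26 members and for 15.6% of all _C probes.

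The other members over 2000 in IR64 were R02-00919R_C at 2368, R01-00741F_C at 2345, R01-01281R_C at 2257, R03-01269F_C at 2137 and R11-00037R_C at 2152. All but the last were called higher. R11-00037R_C gave 1228 and 3075, with an outlier mark on replicate 2 that left 1 array in its ratio of 0.58 ± 0.34 (adjusted p = 0.533, limma). In 4 members the IR64 level exceeded the lowest of root, panicle and callus.

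Lower in IR64 was R01-01181R_C, with 269 and 390.4 there against 932 and 1032 in Nipponbare shoot on the same arrays, a log2 ratio of -1.63 ± 0.14 (adjusted p = 0.0019, limma). R06-00818R_C gave 287 and 327 against 923 and 728, or -1.45 ± 0.20 (adjusted p = 0.0105), and without IR64 replicate 1 its adjusted p was 0.0657. Under normexp with loess these ratios were -0.74 and -0.54, both still called. The groups did not overlap in either probe, and both were named for their low ratios. R01-00114R_C had the lowest ratio, -2.83 ± 0.30 (adjusted p = 0.00476), which rests on replicate 1 alone, where IR64 was at 0. Replicate 2, with 737 against 979, was left out as an outlier spot, and under normexp with loess the ratio was -0.78 with an adjusted p of 0.0697.

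Not well above background in either IR64 channel were 5 members, R12-00319R_C, R01-01024F_C, R08-00576R_C, R11-00013F_C and R02-00036F_C. Against the bound for a dim spot, root of R12-00319R_C was at least 35.5-fold higher than IR64 shoot, and root of R01-01024F_C at least 17.6-fold. Callus was at least 17.5-fold higher for R02-00036F_C and at least 16.9-fold for R11-00013F_C, and panicle at least 9.41-fold for R08-00576R_C. These are bounds across arrays, set by the dimmest signal well above background on each IR64 array or the probe's own where that was higher, and were not tested.

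Root, panicle and callus had no order fixed by the rule. In the contrasts of their ratios, 34 members were called higher and 12 lower in root than in panicle, where 6.07% and 6.51% of all probes were, and 10.2% and 11.2% of all _C probes. Between root and callus 29 were higher in root and 56 in callus, against 8.93% and 9.29% of all probes and 15.2% and 15.3% of _C probes. Between panicle and callus 16 were higher in panicle and 76 in callus (4.68% and 22.2% of the members), against 9.36% and 9.99% of all probes and 15.7% and 16.5% of _C probes. The floor of 2000 in each tissue limits how far these tissues can differ within the set. Callus was called above both others for 34 members, root for 14 and panicle for 8, and no contrast was called for 196. Over all _C probes these shares were 8.69%, 5.78%, 6.89% and 53.1%.

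With normexp and loess the counts were 62 and 32 for root and panicle, 126 higher in callus than in root, and 155 higher in callus than in panicle. Leaving out any 1 hybridization of the tissues compared gave 9 to 21 and 2 to 6 for root over and under panicle, 8 to 13 and 12 to 21 for root over and under callus, and 7 to 13 and 18 to 34 for panicle over and under callus. No shares over all probes are given for these settings, so nothing is read from the change in the counts. The shoot values that stand beneath these ratios differed with the partner, as described above. Read directly from the scaled levels, 105 members differed more than 2-fold between root and panicle, 153 between root and callus and 150 between panicle and callus. By the fitted ratios the numbers were 59, 95 and 101. In R12-00319R_C the root level was 1.55 above the panicle level on the log2 scale, and the fitted contrast was 0.11 ± 0.24.

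R10-00486F_C and R01-00628F_C stood out in root. The former gave 89932 and 92006 in root, 4865 and 5191 in panicle, 4521 and 4541 in callus and 616 to 1936 in shoot. Its root ratio exceeded that of panicle by 3.00 ± 0.21 and that of callus by 2.72 ± 0.21 on the log2 scale (adjusted p = 0.000787 and 0.000841, limma). R01-00628F_C gave 38556 and 62193 in root against 2381 and 3207 in panicle and 2049 and 2456 in callus, with 685 to 1445 in shoot and contrasts of 3.47 ± 0.43 and 3.61 ± 0.43 (adjusted p = 0.00361 and 0.00259). Root did not overlap with the other tissues in either of them, and both were named for their root contrasts, so nothing is read from that.

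In panicle R07-00424F_C gave 19704 and 21441, against 3733 and 4714 in root and 1985 and 2339.8 in callus, and 521 to 1754 in shoot. Its panicle ratio exceeded that of callus by 2.57 ± 0.35 (adjusted p = 0.00388, limma), and its root ratio was -1.59 ± 0.35 relative to panicle (adjusted p = 0.0298). R05-00777F_C gave 22475 and 18321 in panicle, 2082 and 2747 in root and 2647 and 3136 in callus. Its panicle ratio was 2.08 ± 0.41 above callus (adjusted p = 0.0181), and the contrast with root lay at the threshold with an adjusted p of 0.04996. For R07-00424F_C the contrast with root was lost without panicle replicate 1 (adjusted p = 0.109), root replicate 1 (0.0604) or root replicate 2 (0.164). For R05-00777F_C it was lost without root replicate 1 (adjusted p = 0.110) and without either panicle replicate (0.127 and 0.190), and the contrast with callus was lost on leaving out any replicate of panicle (0.0624 and 0.0878) or callus (0.108 and 0.0679). The panicle levels did not overlap with those of root or callus in either probe. Both were named for their panicle contrasts, so nothing is read from that.

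Callus was far above the others in R02-00551R_C, with 44009 and 42872 against 9047 and 4672 in panicle and 2340.1 and 2369 in root, and 316 to 1127 in shoot. Relative to callus its root ratio was -2.86 ± 0.33 and its panicle ratio -1.87 ± 0.33 (adjusted p = 0.00326 and 0.013, limma). The panicle contrast was lost without panicle replicate 2 (adjusted p = 0.0559), callus replicate 1 (0.0829) or callus replicate 2 (0.0576). R10-00125F_C gave 16884 and 16368 in callus, 2694 and 3416 in root and 2745 and 2855 in panicle, with -1.90 ± 0.23 for root and -1.75 ± 0.23 for panicle (adjusted p = 0.00368 and 0.00467). Its shoot channels were 1535 and 1258 beside callus and 572 to 959 beside the other samples.

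Other probes at the same loci took no part in the rule. There were 123 of them at 63 member loci, 69 of a kind named E5 at 12 loci and 54 of a kind named S, listed with a cDNA clone, at 51 loci. Higher in root, panicle and callus than in shoot were 68 of the 123 (55.3%), against 11.2% of the E5 and S probes of other loci and 11.7% of all probes. Their median log2 ratios over shoot were 1.63 in root, 1.36 in panicle and 1.51 in callus, and those of the E5 and S probes of other loci were -0.09, -0.06 and -0.13. Of the E5 probes 55 of 69 were called higher in all of root, panicle and callus and 0 were called lower in any. Of the S probes these numbers were 13 of 54 (24.1%) called higher in all, and 11 called lower in root, 10 in panicle and 9 in callus. Of all _C probes 22.0% were called higher in all, near the share of the S probes. At other loci the kinds were counted together. Up to 9 of these probes stood at 1 locus. Probes of a locus share its transcripts, so the probe counts are not counts of separate observations. The difference between the kinds was not tested.

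The thresholds of the rule were met by 19 of the 123, which were 18 E5 probes and the S probe R03-00621R_S2. At 17 of the 63 loci every other probe was called higher in all of root, panicle and callus, at 7 some were, and at 39 none was. The higher signal over shoot was thus seen in further probes at some loci and not at others.

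At the locus of R02-00045F_C, with 9 E5 probes, 8 of these had log2 ratios between 0.88 and 1.64 over shoot in callus with larger ones in root and panicle, and E5_09809 had 0.42 ± 0.31 in callus. The member itself gave 7932 and 10102 in root, 6657 and 6580.1 in panicle, 2179 and 2270.3 in callus and 514 to 1044 in shoot. All 9 probes of the locus of R03-00219F_C were called higher in root, panicle and callus. None of them was under 1000 in shoot, where the lowest was at 1212. Levels of different probes cannot be set against each other, since probes differ in how they bind.

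The locus of R02-00847R_C was less even. Its 9 E5 probes had shoot levels between 826 and 14409 and panicle ratios from -0.37 to 0.93, where the member had 907 in shoot and 1.27 ± 0.20 in panicle. For E5_08919 shoot was at 14409, root at 14403, panicle at 10092 and callus at 18867. This probe was not called in any of root, panicle and callus against shoot. The loci of R05-00161R_C and R09-00274F_C also had 9 E5 probes each. Every one at R05-00161R_C, and all but E5_04246 at R09-00274F_C, was called higher in root, panicle and callus. At both loci some of these probes met the thresholds of the rule, such as E5_03527 and E5_03302, and others did not.

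The S probes that went most against their member were R03-00083F_S1, R07-00207F_S1 and R05-00044F_S1. Each of them was on a different array set from its member, so the values compared come from different arrays. R03-00083F_S1 was at 117106 in shoot and 141116 in IR64 shoot, against 25974 in root, 29941 in panicle and 32571 in callus, with log2 ratios of -2.22 ± 0.16, -1.97 ± 0.16 and -1.65 ± 0.16 over shoot (adjusted p = 0.000141, 0.000276 and 0.000384, limma). The member R03-00083F_C was at 829 in shoot with ratios of 1.49 ± 0.23 in root, 1.62 ± 0.23 in panicle and 1.43 ± 0.23 in callus. One locus name thus covered a probe that was higher in both shoots and a probe that was lowest there. R07-00207F_S1 was at 5583 in shoot, 3563 in root, 1779 in panicle and 2037 in callus, and R05-00044F_S1 at 1456, 614, 806 and 951, and both were called lower than shoot in each. Whether such probes read the transcript they are named for was not tested.

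Members were spread over all 12 chromosomes. Their share of the _C probes ran from 1.29% on chromosome 4 (24 of 1863) to 2.25% on chromosome 7 (35 of 1555), and was 1.75% for orientation F and 1.60% for R. Locus numbers that follow each other directly were found in 15 pairs, and in 6 of these root, panicle and callus had the same order of levels in both probes. The designs gave no coordinates, so a distance between such loci is not known here.

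R01-00279F_C and R01-00280F_C, in the same orientation, were at 10026 and 9085 in root, 8100.4 and 5808 in panicle, 4076 and 4209 in callus, and 888 and 848 in shoot. The pair R02-00672F_C and R02-00673R_C, in opposite orientation, gave 2449.9 and 2586 in root, 7039 and 5599.8 in panicle, and 9212 and 6949.5 in callus. R03-00620R_C and R03-00621R_C, both in orientation R, were at 8542 and 6372 in root, 2588 and 2230.1 in panicle and 9913 and 7513 in callus. Within each of these pairs, root, panicle and callus had the same order in both probes.

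In other pairs the order differed. R01-00427F_C was at 22163 in root, 4049 in panicle and 16556 in callus, while R01-00428F_C was at 2960.3, 39665 and 5025. R08-00483R_C was called higher in IR64 (1.21 ± 0.20, adjusted p = 0.0188, limma), with 2041 and 1213 against 799 and 557. Its neighbour R08-00484F_C gave 757 and 2769.9 in IR64 against 667 and 2789.7, with replicate 2 left out of its ratio as an outlier spot. The same order was also found in numbers 708 and 709 on chromosome 1 and in 526 and 527 and 688 and 689 on chromosome 7. The further pairs were numbers 1181 and 1182 on chromosome 1, 406 and 407 and 923 and 924 on chromosome 2, 304 and 305 on chromosome 3, 476 and 477 on chromosome 5, 390 and 391 on chromosome 11, and 474 and 475 on chromosome 12.

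Being low in shoot alone was more common than being low in another Nipponbare tissue alone. With the same limits, 142 _C probes were under 1000 in callus and over 2000 in the other tissues, 41 in root and 33 in panicle. Of all _C probes, 31.3% were under 1000 in shoot, 25.2% in callus, 25.9% in root and 24.1% in panicle. The shoot level was a median over 8 channels and the other levels over 2. When channels were scaled on the probes well above background the numbers were 410 for shoot, 120 for callus, 42 for root and 34 for panicle. With normexp, loess and between-array normalization they were 196, 115, 32 and 20. The order of shoot, callus, root and panicle was the same under these scalings, although only 200 of the 342 members met the rule under the former and 187 under the latter.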

How the data were processed

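The signal intensity values were deposited by the authors as Agilent Feature Extraction output (version 8.1 in the file headers, 7.5 in the submitters' processing notes), with background subtracted and dyes normalized within each array by LOWESS on rank-consistent probes. The deposited flags (other values of 0 or 1) mark spots well above background, saturated or outliers. The deposited log10 ratios equalled the scanner's at all 44290 spots of each array (tolerance 0.006) and served as an alternative, and no scale, centring or direction stayed unknown. The probes were designed on TIGR Pseudomolecules Release 2 and no coordinates were used.

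Channels were scaled to a median of 1000 for the levels. The log2 ratios of tissue over shoot on the same array, without outlier spots, were fitted with limma 3.58.1 in R 4.3.3, for each array set over 8 arrays with a coefficient for each tissue, and p-values were adjusted by Benjamini-Hochberg over both sets. Of the member ratios 13, in 12 members, were left out as outlier spots. The fit was tested on simulated data. The number of arrays limits the precision. Nothing states that replicates came from separate plants beyond their labels, so p-values measure the spread between these samples.

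Replicate numbers were checked as pairs. The differences between replicates of different comparisons correlated with r from 0.213 to 0.494 over 12 pairs of comparisons. The replicate number also marks the dye orientation and, outside callus, the shoot extract.

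Named probes followed a rule on the size of the fitted ratios, IR64 levels, distance from the limits, further probes at a locus, spread in shoot and neighbouring numbers. R11-00037R_C, R02-00919R_C, R01-00741F_C, R01-01281R_C, R03-01269F_C, R08-00576R_C, R11-00013F_C and R02-00036F_C were named after their values were seen. The members, lists and tests were chosen with earlier results of these data known.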

Additional observations from a re-analysis of the deposited data

Results flagged for a closer look

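Of the 63 named members tested over their 8 shoot hybridizations, 13 had 1 value far from the other 7. Chance alone sets apart about 1 in 20 groups on each test where the values are alike. These shoot values differed with the partner, and some probes were named for their spread, so nothing is read from the count. The highest value stood apart beside callus replicate 1 in R07-00526R_C (5154, next 2301), R12-00554R_C (489, next 344) and R04-00202F_C (1703, next 1109.99). Beside callus replicate 2 it was R07-00689R_C (1002, next 758). Beside panicle replicate 2 the highest stood apart in R03-00158R_C (871, next 495), R07-00424F_C (1754, next 1089.8), R03-00821F_C (1164, next 703) and R12-00440R_C (1151, next 845). Beside IR64 replicate 2 it did in R03-00620R_C (1815, next 1069.6) and R08-00484F_C (2789.7, next 984), both of them spots marked as outliers. The lowest stood apart in R06-00423R_C (0 beside root replicate 2, next 190.1), R05-00523R_C (0 beside panicle replicate 2, next 224) and R05-00476F_C (346 beside panicle replicate 1, next 824). The values of 0 stand for spots not well above background and are not measured signals.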

How the results depend on the processing

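The number of members was 343 without outlier spots, 309 with means for medians, 289 without the IR64 arrays, 410 with scaling on probes well above background, 355 and 334 without replicate 1 and without replicate 2, 196 with normexp, loess and between-array normalization, 67 with shoot under 500 and 62 with the other tissues over 4000. Scaling on probes well above background left 2 members over 2000 in IR64. The counts called higher and lower in IR64 were 11 and 4 with normexp and loess and 0 and 0 with the IR64 arrays alone, where fewer arrays set the spread, and 18 to 26 and 6 to 10 without a replicate. The median ratio in IR64 was 0.037 with normexp and loess. With normexp and loess the calls were 62 and 32 for root over and under panicle, 126 for callus over root, and 155 for callus over panicle. Without 1 replicate they were 9 to 21, 2 to 6, 8 to 13 (root over callus), 12 to 21, 7 to 13 (panicle over callus) and 18 to 34. Fits without a replicate hold fewer samples, and otherwise the cause was not tested. Shares of calls over all probes are given here only for the main fit and the IR64 arrays alone. The replicate block gave 27 and 10 members called in IR64, 342, 342 and 341 called higher in root, panicle and callus than in shoot, 45 and 18 for root over and under panicle, 36 and 67 for root over and under callus, 22 and 93 for panicle over and under callus, and 73 of the other probes, and changed no call of a probe named for its tissue contrast or IR64 ratio. Of the 163 alternative values for these named probes, 140 kept direction and call, 23 kept direction and lost the call, and 0 reversed. Of the lost calls 7 came from the IR64 arrays alone. Centring the arrays, the deposited ratios and a filter on dim probes kept each count within 1.5 times. The counts of probes low in another single tissue under other scalings were chosen after seeing the data. Dim shoot spots limit ratios at the low end.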
